A study of Mus musculus with 10 samples.

Results

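The cytosolic ribosome is built from a small and a large subunit, each made of ribosomal RNA and of many ribosomal proteins. Each of these proteins is encoded in mammals by its own gene, and the genes are known for being transcribed at high and balanced levels in nearly every cell. Their messages usually begin with a run of pyrimidines, the 5′ terminal oligopyrimidine (TOP) tract, through which mTOR and LARP1 control their translation.

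The ribosomal protein genes described here are the protein-coding genes of the deposited table whose name starts with *Rpl* or *Rps* and a digit, together with *Rplp0*, *Rplp1*, *Rplp2* and *Rpsa*. The kinases named *Rps6k* and *Rps19bp1*, which are no ribosomal proteins, were left out. The rule gave 98 genes of the 23195 in the table, 16973 of which are protein coding. They comprise 77 core genes for a subunit protein, 46 of the large and 31 of the small subunit, and further paralogs and genes whose name marks them as pseudogene copies. The samples were hearts of male embryos at embryonic day 13.5 on the C57BL6/J strain, 5 of them wild type and 5 *Nos1ap* null. The null embryos were homozygous for the constitutive tm1d allele, which lacks exon 4 of *Nos1ap* in every cell, so an effect in a heart cell could not be told apart from an effect that starts in another organ. The table gives 1 mean normalized count per genotype and gene, that is, read counts divided by a size factor that brings libraries to one scale and averaged over the 5 libraries.

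The values of single libraries were derived from these means, as a mean written with many digits is matched by few sets of 5 whole counts. Libraries were numbered from 1 to 5 by descending size factor within a genotype, which is not the replicate number of the labels. An estimated 11328000 to 14023000 read pairs per library fell on genes. *Nos1ap* was at 147, 133, 126, 161 and 153 in wild type and at 42.3, 42.2, 44.4, 31.1 and 39.2 in *Nos1ap* null, so that the genotypes did not overlap. Summed over 10 markers (*Tnnt2*, *Myh6* and *Actc1* among them), cardiomyocyte messages reached 399256 in wild type and 406834 in null. Erythroid markers, which come with the blood in the heart, were higher in null for 9 of 10 genes, and all 5 neuronal markers with a mean of at least 10 were lower. Neither list holds a ribosomal protein gene, and their part in the results below was not tested. In whole hearts, fewer cells of a type and less RNA per cell cannot be told apart.

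The start of a ribosomal protein message is shown first, for 5 members whose values are given below and for *Rpl28*. Each line gives 30 bases from 12 bases before the annotated start on, read 5′ to 3′ from RefSeq on GRCm38.p6, and capitals mark the longest run of C and T in it.
*Rpl28* (chr7:4792953-4792982, plus strand): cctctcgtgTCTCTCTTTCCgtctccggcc
*Rps6* (chr4:86857350-86857379, minus strand): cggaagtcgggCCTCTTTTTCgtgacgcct
*Rplp2* (chr7:141447639-141447668, plus strand): gtcagcgTCTTCCTTTCgccgccggacgcc
*Rpl38* (chr11:114668568-114668597, plus strand): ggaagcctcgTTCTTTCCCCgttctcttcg
*Rpl27* (chr11:101442233-101442262, plus strand): ctctgTTCCTgtctgctgctcgtgctgcta
*Rps28* (chr17:33824545-33824574, minus strand): accgcgtgcggTCTCgcgagagcgaaagtg
The first 4 carry a run of 10 or 11 pyrimidines across the start, the pattern known from TOP messages. In *Rpl27* the longest run has 5 bases and ends before the annotated start. In *Rps28* it has 4 bases and spans the start. *Rpl28* was chosen for its run, the longest of those shown.

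Of the 98 genes, 64 had a RefSeq window of 300 bases, from 250 before to 50 after a start. A run of at least 8 pyrimidines that reaches within 15 bases of a start was found in 48.4% of these 64 genes, against 20.0% of the 27025 genes with a window. The motif CCGGAAG, known from binding sites of ETS factors, was held on either strand by a window of 40.6% of the 64 members and of 9.93% of all genes. The motif AAGATGG, known from YY1, was in 15.6% against 7.28%. The SP1 motif GGGCGG was in 60.9% against 38.2%. The TATA box, searched as TATAAA, was in 10.9% against 15.7%. Among other protein-coding genes that reached a mean of 10, the ETS motif was held by 19.0%, the YY1 motif by 8.06%, the TATA box by 8.67% and the SP1 motif by 69.4%. Of 68 mitochondrial ribosomal protein genes with a window, 36.8% held the ETS and 19.1% the YY1 motif. None of these shares was tested against another. A match is a description of letters and not a site. The median log2 ratio of null over wild type, which is described below, was -0.042 in the 29 core genes with a run of 8 and -0.035 in the 28 without, a difference that was not tested.

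Of all normalized counts, they took up 3.32% in wild-type and 3.20% in null hearts. Levels between genes were compared per kilobase of 1 representative transcript, since longer messages give more reads. On this scale, 32 of the 77 core genes were among the 100 protein-coding genes of highest level, and 74 were among the first 500. By normalized count, without scaling to length, 5 were among the first 100. The highest level was that of *Rpl41*, which encodes the smallest ribosomal protein, with 12952 normalized counts per kilobase (wild type) and 12447 (null). *Rplp1*, a protein of the acidic stalk that recruits translation factors, followed with 12309 and 11829. *Rps2*, a protein at the entry of the mRNA channel, was at 12060 and 11987, and *Rpl23a*, next to the exit of the peptide tunnel, was at 11881 and 11798. *Rplp0*, on which the stalk is built, was at 10609 and 10518, whereas the stalk protein *Rplp2* was at 3878 and 3853. For *Rplp2*, a transcript of 964 bases was taken. Per kilobase of coding length, the mean over both genotypes was 15084 for *Rplp0*, 17610 for *Rplp1* and 10801 for *Rplp2*.

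**Figure D1:**
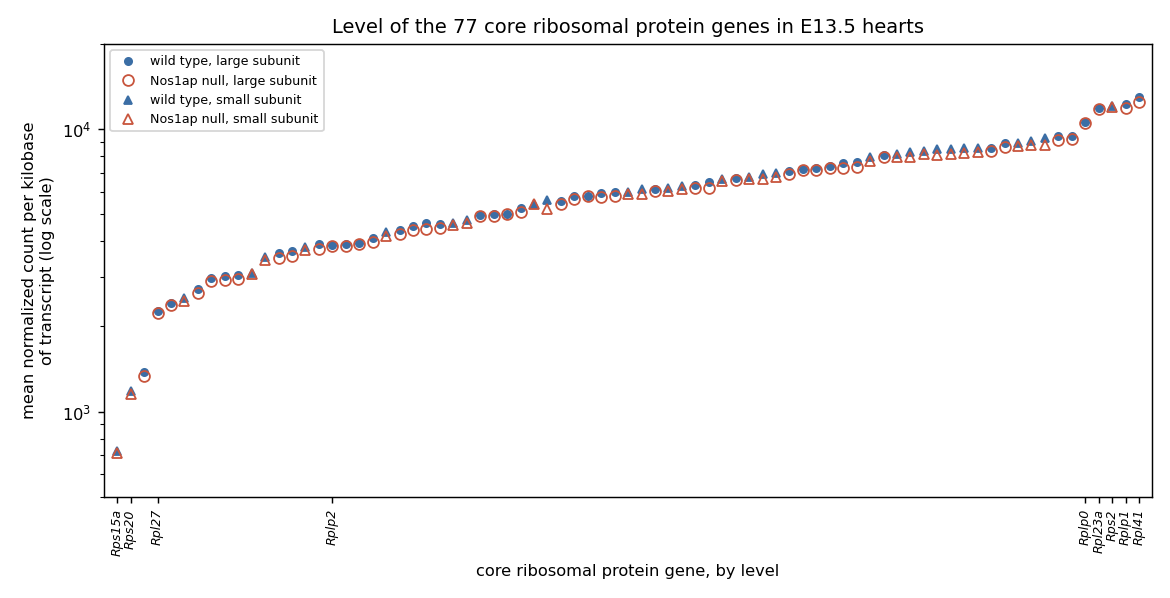
Mean normalized count per kilobase of transcript (log axis) of the 77 core ribosomal protein genes in wild type (filled) and *Nos1ap* null (open), with circles for the large and triangles for the small subunit, sorted by level, with a few genes named. The middle of the genes lies near 5952, the genotypes nearly coincide for every gene, and the lowest values, of *Rps15a* and *Rps20*, rest on long representative transcripts.

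The core genes had a median of 5952 normalized counts per kilobase, and their quartiles were 4050 and 8023, a ratio of 1.98. Small subunit genes had a median of 6599 and large subunit genes of 5617, with quartiles that overlap. The lowest level per kilobase was 719, of *Rps15a*, for which a transcript of 5179 bases was taken. Per kilobase of coding length, the ratio of the quartiles was 1.38 and the lowest core gene was *Rpl27*. The 77 genes are spread over 19 chromosomes, 4 of them (*Rps4x*, *Rpl10*, *Rpl36a* and *Rpl39*) on the X chromosome.

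Not normalized for length, the mean normalized counts ranged from 1382 (*Rpl27*, mean of both genotypes) to 14345 (*Rplp0*). *Rplp0* was at 14406 in wild type and 14284 in null. *Rpl4* followed at 12421 and 12259, and *Rpsa*, a protein that is also known as the laminin receptor, at 12178 and 11873. *Rps2*, *Rpl3*, *Rps4x*, *Rps3a1*, *Rpl6* and *Rpl13a* were also among the 10 highest, with wild-type means from 7634 (*Rpl13a*) to 12036 (*Rps2*). The 10 lowest had means of 14.4 (*Rps26-ps1*) and less. They comprise the muscle paralog *Rpl3l* (4.79 and 3.83), the testis paralog *Rpl39l* (0.413 and 1.48) and 8 genes with pseudogene names, *Rps26-ps1*, *Rps18-ps3*, *Rps2-ps6*, *Rpl36-ps3*, *Rpl7a-ps5*, *Rpl13-ps3*, *Rpl7a-ps3* and *Rpl13a-ps1*.

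The comparison of null with wild type asked whether loss of *Nos1ap* changes these messages. Among the 77 core genes, 76 had a lower mean in null, and the median log2 ratio of null over wild type was -0.039, a difference of -2.65%. The range went from -0.10 (*Rps19*) to 0.0036 (*Rps28*), the only core gene with a higher mean in null. The medians of the large and small subunit were alike, at -0.039 in both. Across all members with a mean of at least 10, 87 of 89 were lower in null, and the median was -0.041. By comparison, 50.5% of 13299 protein-coding genes with such a mean were lower in null. Of the 2622 that reached 1000, 44.2% were lower, a share that varied with transcript length, as given below. The median log2 ratios of these groups of genes were -0.00093 and 0.0057. No test across libraries could be made on the deposited means of the abundant members. Of the 77 core genes, 52 had a mean over 4000, for which library values were not resolved, and the library values given below rest on members of lower mean.

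**Figure D2:**
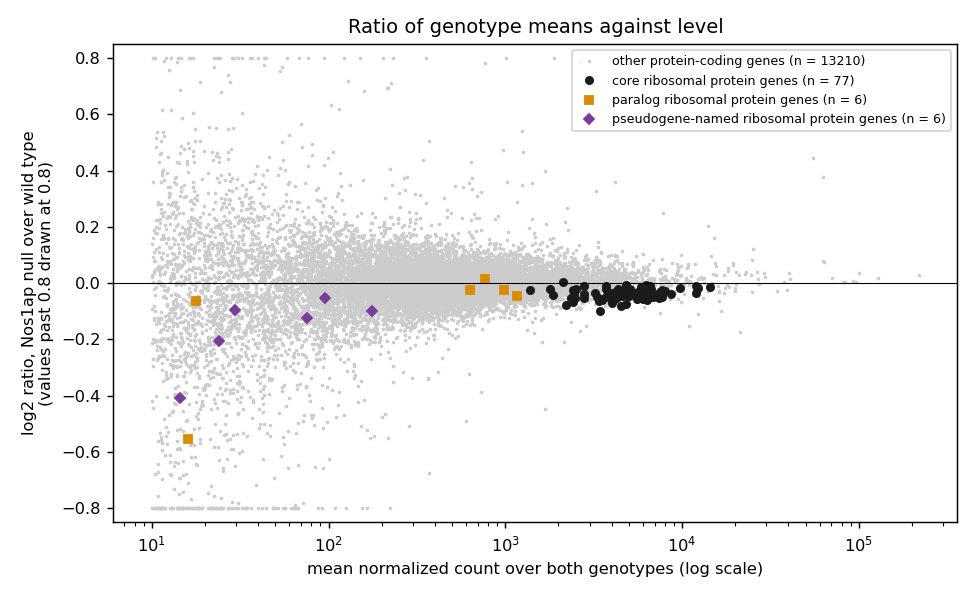
Log2 ratio of the null over the wild-type mean (vertical axis, values past 0.8 drawn at 0.8) against the mean normalized count over both genotypes (log axis) for protein-coding genes that reached a mean of 10. The 77 core genes (black) form a narrow band from -0.10 to 0.0036 just under 0, and the paralogs (orange) and genes with pseudogene names (purple) of low level scatter more widely, down to -0.55.

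A log2 ratio past 0.1 in either direction was reached by 6 of the 89 members (6.74%), whereas 23.7% of protein-coding genes passed it at the same filter. All 6 were lower in null, in the direction taken by 13.2% of these genes, and 10.5% were higher. At means of 1000 and more, 1 of 78 members passed, against 4.27% of the genes, of which 1.03% were lower and 3.24% higher. This gene was *Rps19*, a small subunit protein that is mutated in Diamond-Blackfan anemia, with a mean of 3549 in wild type and 3311 in null. The largest ratios came from genes of few counts, *Rps27rt* (-0.55), *Rps26-ps1* (-0.41), *Rpl23a-ps3* (-0.21), *Rps12-ps3* (-0.12) and *Rpl27-ps3* (-0.10), which are tested below. *Rpl9-ps6* (-0.096), *Rps15* (-0.081), *Rpl36a* (-0.078) and *Rps12* (-0.073) followed.

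Genes that are studied for other roles lay in the same band. *Rps6*, the substrate of S6 kinase downstream of mTOR, was at 7009 in wild type and 6776 in null, a log2 ratio of -0.049. *Rpl5* and *Rpl11*, which bind MDM2 and stabilize p53 when ribosome assembly is disturbed, had ratios of -0.029 and -0.042. *Rps27a*, which is made as a fusion with ubiquitin, was at -0.026, and *Rpl13a*, which has a role in translational silencing after interferon γ, was at -0.031. *Rpl23a* was at -0.010. Among the stalk genes, *Rplp1* was at -0.057, *Rplp0* at -0.012 and *Rplp2* at -0.0093. Across the 77 core genes, the log2 ratio had a Pearson correlation of 0.25 with the log2 transcript length, of -0.22 with the GC content and of 0.18 with the log2 level (Spearman 0.29, -0.22 and 0.21), given as a description, as all of these genes were measured in the same 10 libraries.

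For members with a mean over 1000, too many sets of counts give a mean for a single gene to be settled by itself. The sets of 26 members with means from 1000 to 4000 were therefore searched together for relative library levels that they share. In wild type, library 1 stood at 111% of the genotype mean, and libraries 2 to 5 stood at 98.6%, 97.7%, 98.4% and 94.7%. In null, library 2 stood at 114%, and libraries 1, 3, 4 and 5 stood at 98.6%, 96.7%, 95.7% and 94.8%. The SD over the 5 libraries was 6.11% in wild type and 8.10% in null. Thus 1 library of each genotype stood above the others. Fits on wider or narrower ranges of mean, or on large or small subunit members alone, placed wild-type library 1 at least 10.1% and null library 2 at least 13.7% above the mean. The profile rests on the less abundant members. The 48 members with means of 4000 to 10000 alone did not settle it in wild type, where a different profile, with library 1 at -2.75%, matched nearly as well.

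Set against the wild-type mean by the median ratio of the core genes, the wild-type libraries spanned 94.7% to 111% and the null libraries 92.3% to 111%. The ranges overlapped, and the difference of -2.65% between the genotypes was smaller than the SD in either. Both statements rest on wild-type library 1 and null library 2. The other 4 wild-type libraries lay between 94.7% and 98.6% (SD 1.80%) and the other 4 null libraries between 92.3% and 96.0% (SD 1.58%). Among these, the ranges still overlapped, but the difference of -3.58% was larger than the SD in either. These 2 libraries were left out after their values were seen, and the difference was not tested. The size of the median rested on single libraries. Without wild-type library 1, the median log2 ratio of the core genes was -0.00013, and without null library 2 it was -0.091. Without both, it was -0.053, and the medians with any other library left out ranged from -0.058 to -0.020. With the median library of each genotype in place of the mean, it was -0.065. These values assume that every core gene follows the shared profile.

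**Figure D3:**
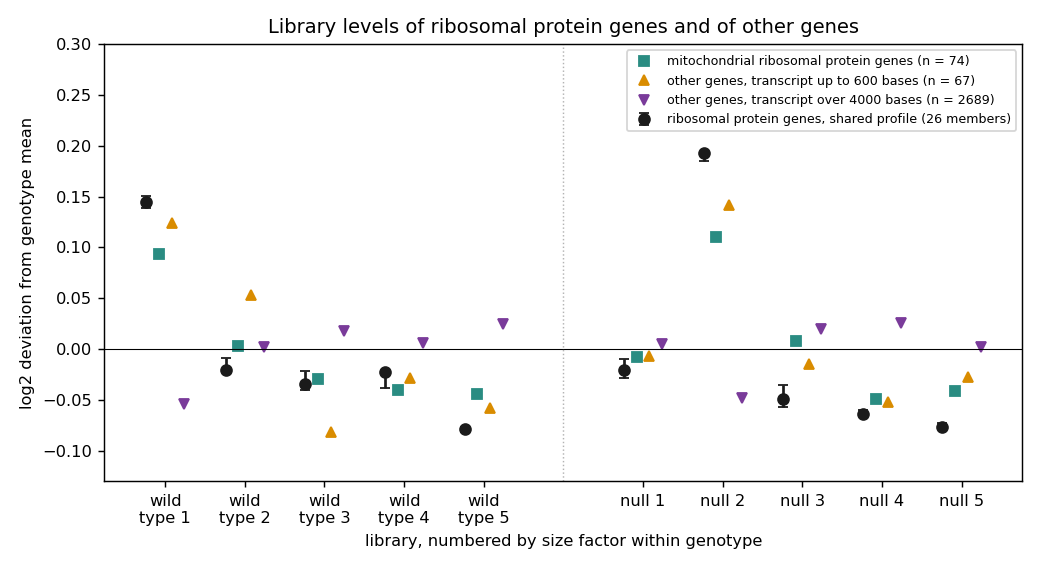
Log2 deviation of each of the 10 libraries from its genotype mean, for the profile shared by 26 ribosomal protein genes (black, bars span the fits on other subsets of members) and as medians of 74 mitochondrial ribosomal protein genes (green squares), 67 other genes with transcripts up to 600 bases (orange) and 2689 with transcripts over 4000 bases (purple). Wild-type library 1 and null library 2 stand high for ribosomal proteins of both kinds and for short transcripts and low for long ones.

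The same 2 libraries stood apart for other genes, whose counts were recovered gene by gene without any shared profile. The 74 genes for mitochondrial ribosomal proteins with a mean of at least 50 had a median log2 deviation of 0.093 in wild-type library 1 and 0.11 in null library 2, and between -0.049 and 0.0076 in the other 8 libraries. Of these genes, 39 (52.7%) were highest in both libraries within their genotypes, as were 1011 of the 8405 protein-coding genes outside the members (12.0%). The deviation followed transcript length. It was 0.12 and 0.14 for the 67 genes with transcripts up to 600 bases, 0.024 and 0.026 for 1953 genes over 1500 and up to 2500 bases, and -0.054 and -0.048 for 2689 genes over 4000 bases. It also followed GC content, with medians of -0.063 and -0.065 at up to 42% GC and 0.072 and 0.034 over 58%. Other libraries varied with GC content as well. Between the same classes, wild-type library 3 went from -0.014 to 0.034, library 2 from 0.041 to -0.045 and library 5 from 0.042 to -0.051. The core genes have short messages, with a median transcript length of 833 bases against 3084 in other protein-coding genes, and a GC content of 51.6% against 50.5%. Wild-type library 1 was the deepest of its genotype, with a size factor of 1.15, whereas null library 2 was at 0.994, under the 1.11 of the deepest null library. *Klf1*, a transcription factor of red cell precursors and one of the erythroid markers, was at 29.6, 12.6, 23.4, 23.7 and 10.3 in wild type and at 14.4, 92.5, 11.1, 30.1 and 21.8 in null. It was thus highest in the same library of each genotype as the ribosomal protein genes. The part of length, GC content or blood in the levels of ribosomal protein genes was not tested.

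The group ratio followed transcript length too. Other protein-coding genes with a mean of at least 10 had median log2 ratios of -0.032 up to 600 bases (122 genes), -0.021 up to 900, -0.022 up to 1500, -0.0089 up to 2500, 0.00021 up to 4000, and 0.012 above (4413 genes). The core genes of the first 4 classes had medians of -0.052 (20 genes), -0.042 (25), -0.031 (22) and -0.035 (8). They were below those of other genes of like length in each of these classes, and this step was not tested. Of other genes that reached a mean of 1000, 73.1% were lower in null up to 600 bases, 68.9% up to 900 and 73.7% up to 1500. The share was 53.8% up to 2500 bases, 43.5% up to 4000 and 29.7% above. Of the core genes, 95% were lower up to 600 bases and 100% in each longer class. These shares were not tested either.

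**Figure D4:**
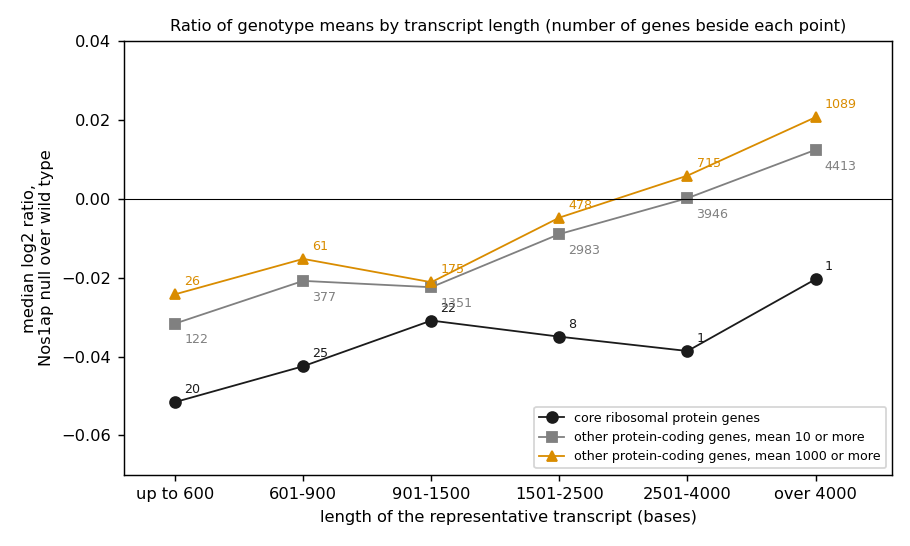
Median log2 ratio of the null over the wild-type mean by transcript length class for the core ribosomal protein genes (black), other protein-coding genes with a mean of at least 10 (grey) and of at least 1000 (orange), with the number of genes beside each point. The other genes go from -0.032 in the shortest to 0.012 in the longest class, and the core genes lie below them, with 1 gene in each of the 2 longest classes.

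Under the shared profile, 13 of the 26 members had 1 set of counts with a probability of at least 0.95 in both genotypes. Their likeness to each other is in part a result of this choice, which leaves out members of another profile, so that their values are given without a test. *Rpl27*, near the exit of the peptide tunnel, was at 1511, 1397, 1354, 1376 and 1334 in wild type and at 1453, 1536, 1289, 1351 and 1215 in null. *Rpl38*, which is known for a patterning role in the mouse axial skeleton, was at 2080, 1772, 1718, 1804 and 1670 in wild type and at 1824, 2118, 1584, 1651 and 1747 in null. In both, null library 2 was above every wild-type library, and the lowest value was that of another null library.

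*Rplp2* was at 4229, 3534, 3707, 3722 and 3499 in wild type and at 3566, 4263, 3647, 3532 and 3564 in null. *Rps27*, a zinc finger protein of the small subunit, was at 3123, 2922, 2765, 2796 and 2670 in wild type and at 2728, 3093, 2708, 2605 and 2633 in null. *Rpl36a* had the largest ratio of the 13, with 2594, 2194, 2183, 2208 and 2078 against 2085, 2409, 2038, 2044 and 2089. The other 8 were *Rpl22*, *Rpl30*, *Rpl34*, *Rpl37*, *Rpl39*, *Rps15a*, *Rps21* and the paralog *Rpl36al*. The ranges of the genotypes overlapped in all 13. Wild-type library 1 and null library 2 were the highest of their genotype in all 13 as well. Among genes with recovered counts, the ranges of the genotypes did not overlap in 0.785%.

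**Figure D5:**
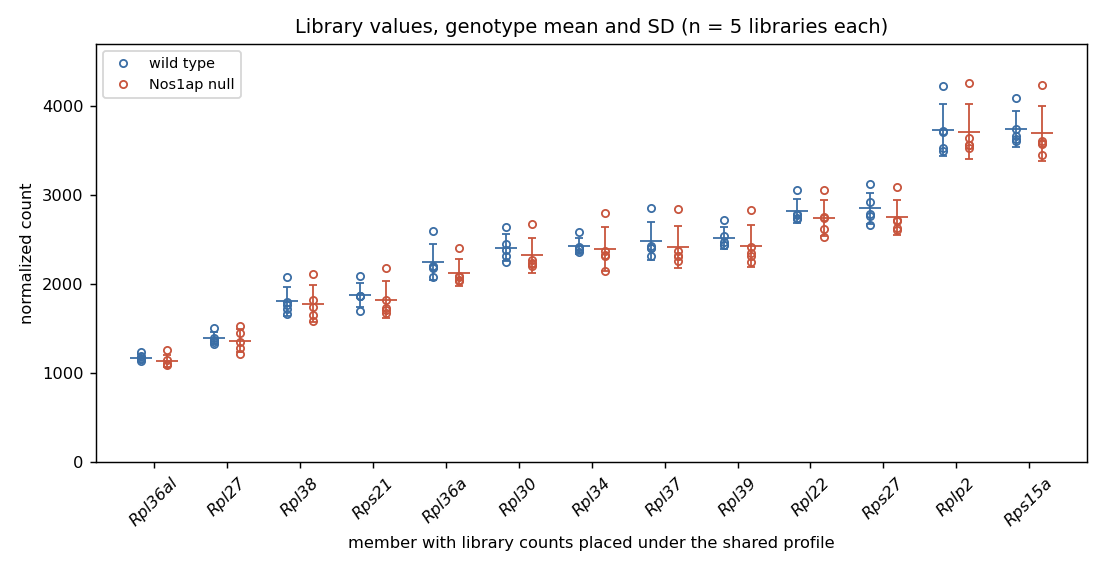
Normalized counts of 13 ribosomal protein genes in each library (circles), with the mean (dash) and SD (bars) of 5 wild-type (blue) and 5 *Nos1ap* null (red) libraries. In every gene 1 library of each genotype sits above the rest, and the ranges of the genotypes overlap.

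Counts were recovered without the profile for 20 members, all with means under 1000, and 11 of these had a mean of at least 10. All 20 are paralogs or genes with pseudogene names, so that no core gene was tested in this way. By limma with Benjamini-Hochberg adjustment over 10323 protein-coding genes, 0 of the 11 passed an adjusted *P* of 0.05, their adjusted *P* being 0.998, and 0 had an unadjusted *P* under 0.05. The test called 0.0291% of all genes (3 of 10323), 0.0194% as lower, and 3.55% (366) had an unadjusted *P* under 0.05. Of the 11 members, 10 had a lower fitted value in null, where the exception was *Rpl22l1*.

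*Rpl22l1*, the paralog of *Rpl22*, was at 810, 768, 736, 767 and 760 in wild type and at 769, 902, 773, 741 and 693 in null. Its fitted log2 fold change was 0.0089 ± 0.056 (SE), and its exact two-sided permutation *P* was 0.841. *Rpl7l1*, a paralog with a part in ribosome assembly, was at 1068, 932, 976, 983 and 977 in wild type and at 995, 1008, 992, 946 and 912 in null. Its fold change was -0.024 ± 0.042, and its exact permutation *P* was 0.595. *Rps27l*, a p53 target, was at 645, 710, 622, 578 and 635 in wild type and at 584, 712, 638, 602 and 598 in null, with a fold change of -0.025 ± 0.059 and an exact permutation *P* of 0.706. In these 3 genes the genotypes overlapped, and null library 2 was the highest null library.

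Paralog shares follow from the deposited means and carry no test. Per kilobase, *Rpl22l1* made up 50.3% of its pair with *Rpl22* in wild type and 51.2% in null. *Rpl36al* made up 32.4% and 33.0% of its pair with *Rpl36a*, *Rps27l* 13.4% and 13.6% of its pair with *Rps27*, and *Rpl7l1* 5.64% and 5.69% of its pair with *Rpl7*. *Rpl3l*, a paralog of adult heart and skeletal muscle, made up 0.0481% and 0.0390% of its pair with *Rpl3*, and *Rpl39l* 0.0124% and 0.0463% of its pair with *Rpl39*. For these, *Rpl39l* was at 0, 0, 0, 1.03 and 1.03 in wild type and at 0, 1.01, 1.01, 3.22 and 2.18 in null, which is 0 to 3 read pairs per library. These shares depend on the transcript taken for each gene, which had 2051 bases for *Rpl22* and 552 for *Rpl22l1*. Per kilobase of coding length, the mean over both genotypes was 7247 for *Rpl22* and 2109 for *Rpl22l1*, so their near-equal levels hold only on the first scale.

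Copies inserted elsewhere in the genome can share reads with the gene they came from, and the counting divided such reads among them by estimation, so that their values are uncertain. The pair of *Rps27* and its retrogene *Rps27rt* shows this at the sequence. The capitals mark bases of a stretch of 38 that the windows of both genes hold in full, which starts at base 2 of *Rps27* and base 1 of *Rps27rt*.
*Rps27* (chr3:90213631-90213660, minus strand): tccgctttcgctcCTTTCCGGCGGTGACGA
*Rps27rt* (chr9:114982722-114982751, minus strand): acttatcccttgCTTTCCGGCGGTGACGAC
*Rps27rt* was at 22.6, 10.6, 14.3, 36.1 and 12.4 in wild type and at 20.7, 8.04, 8.07, 13.96 and 13.1 in null. Its fitted log2 fold change was -0.50 ± 0.33 (SE), with an exact permutation *P* of 0.254, and the genotypes overlapped.

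The genes with pseudogene names were compared with the core genes by their sums per library. Summed over all 13 of them, wild-type libraries were at 558, 321, 360, 591 and 389 and null libraries at 430, 381, 380, 306 and 552. Libraries 4 and 1 of wild type and library 5 of null were thus the highest of their genotypes, and null library 2 was at 93.0% of its mean. *Rpl27-ps3*, the most abundant of them, was at 217, 111, 158, 270 and 154 in wild type and 193, 133, 194, 81.6 and 248 in null, a fitted log2 fold change of -0.13 ± 0.35 and an exact permutation *P* of 0.762. *Rpl10-ps3* (-0.021 ± 0.15), *Rps26-ps1* (-0.38 ± 0.27), *Rpl9-ps6* (-0.017 ± 0.27), *Rps12-ps3* (-0.14 ± 0.16), *Rpl23a-ps3* (-0.084 ± 0.40) and the paralog *Rpl6l* (-0.11 ± 0.27) also had genotypes that overlapped. Their exact permutation *P* ranged from 0.222 to 0.881. Among 26 genes that the annotation classes as pseudogenes and that are named for a ribosomal protein gene, with a mean of at least 10, 18 were lower in null, with a median log2 ratio of -0.13. Summed over the 127 such pseudogenes with recovered counts, wild-type library 1 was highest at 123% of its genotype mean, and null libraries 5 and 2 were highest at 113% and 109%.

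Other genes of the ribosome and its control are set beside the members by their deposited means. The mitochondrial ribosomal protein genes, which build the separate ribosome of mitochondria, were lower in null for 61 of 77, with a median log2 ratio of -0.027, from -0.12 (*Mrpl34*) to 0.084 (*Mrps31*). The ribosomal protein genes *Fau* (-0.022) and *Rack1* (-0.020), which lie outside the naming rule, were both lower. Of 31 ribosome biogenesis genes with a mean of at least 10, 21 were lower, with a median of -0.022, from -0.13 (*Nip7*, a factor of large subunit assembly) to 0.036 (*Polr1b*, a subunit of RNA polymerase I).

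Other TOP messages and translation factors had a median near 0. Of these 19 genes, 9 were lower and 10 higher in null, with a median of 0.0036. *Eef1b2*, an exchange factor of translation elongation, was lowest at -0.055, and *Pabpc1*, the poly(A)-binding protein of the cytoplasm, was highest at 0.094. Of 12 regulators of ribosomal protein synthesis, 4 were lower, with a median of 0.014, from -0.087 (*Rps6kb2*) to 0.058 (*Mycn*). Of 13 p53 targets, 7 were lower, with a median of -0.0024, from -0.090 (*Aen*) to 0.086 (*Plk2*). None of these lists was tested, and the difference between a list and the ribosomal protein genes was not tested either.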

How the data were processed

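PolyA RNA-seq was performed in E13.5 hearts of 5 wild-type and 5 *Nos1ap* null male embryos, and samples were grouped by the genotype in their labels. Reads were trimmed with Trimmomatic 0.36, aligned with STAR from within RSEM 1.2.31 to GENCODE M10 transcripts (GRCm38), and gene counts were compared with DESeq 1.24.0. The deposited signal values are normalized counts, which the authors averaged per genotype. The authors' fold change, log2 fold change, *P* and adjusted *P* columns were not used.

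Ratios are log2 of the null mean plus 1 over the wild-type mean plus 1, for genes with a mean of at least 10. Transcript lengths and GC content are those of GENCODE M21, and start windows are from RefSeq (64 of 98 members matched). Whole counts behind group means under 1000 were searched in a reduced lattice, and a set was accepted if the expected number of equally close wrong sets was at most 0.01. They were recovered for 20331 of 20551 wild-type and 20356 of 20535 null means, and genes whose counts vary widely between libraries may be left out. Protein-coding genes with recovered counts entered limma 3.58.1 (R 4.3.3), on log2(normalized count + 1), trended and robust. For single genes, exact permutation (two-sided) used all 252 arrangements, where the smallest possible *P* is 0.00794.

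For abundant members, all sets of counts within 0.25 of equal levels were fitted by expectation maximization as 1 normal cluster and an even background. This fit was the last of 5 forms tried, all developed after the data had been seen, as were the values without libraries that stood apart. Its limit to means under 4000 was set after members of higher mean were found not to settle it. The searches and tests were tested on simulated data. Depth was estimated from size factors, and no interval for counting error is given. *P* values set the difference between genotypes against the spread between these libraries.

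The members and lists were chosen with earlier results of these data known. Genes named are the 10 highest and 10 lowest members, the 10 largest ratios with a mean of at least 10, members of paralog pairs (3 pairs were not analysed here), members with recovered counts, 11 genes fixed by name, and the extremes of the other lists. Others, among them members with library counts placed under the profile and those with start windows, were chosen after their values were seen. A few genes that the rule names are not reported here. Alternatives changed filter, pseudocount, scaling, membership, length, model and libraries.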

Additional observations from a re-analysis of the deposited data

Results flagged for a closer look

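In 17 of 50 groups of 5 libraries tested, a library stood apart from the others. Its gap to its neighbour was more than 0.71 of the whole range. The rule took the highest or the lowest library, and in all 17 it was the highest. By chance about 1 in 20 groups would hold such a library at either end. The members are not independent of each other, as they were measured in the same libraries. The shared profile held such a library in both genotypes, wild-type library 1 (10.6% above the mean) and null library 2 (14.3% above).

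Among members placed under this profile, wild-type library 1 stood apart in *Rpl22* (3062 normalized counts), *Rpl34* (2593), *Rpl36a* (2594), *Rpl37* (2859) and *Rps15a* (4094). Null library 2 stood apart in *Rpl30* (2678), *Rpl36a* (2409), *Rpl37* (2842), *Rplp2* (4263), *Rps15a* (4244), *Rps21* (2188) and *Rps27* (3093). As the profile placed these counts, they repeat the profile.

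Among members recovered gene by gene, the highest library stood apart in *Rps26-ps1*, with wild-type library 4 (27.9), in *Rpl23a-ps3*, with wild-type library 1 (57.4) and in *Rpl6l*, with null library 2 (31.2). The cause of these high libraries was not tested.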

How the results depend on the processing

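The median log2 ratio of the members (-0.041) ranged from -0.058 to -0.039 under 9 alternatives of filter, pseudocount, scaling and membership. The 6 members past a log2 ratio of 0.1 became 14 with no filter, 3 with a mean of at least 50, 1 with a mean of at least 1000, 30 past 0.05, 3 past 0.2 and 1 past 0.5. The median level per kilobase of 5952 became 2689 by exon union and 9817 by coding length. No member was called by limma under any of 15 alternatives, which covered paralogs and genes with pseudogene names but no core gene. The voom form called 3 of 10323 genes, with 353 at an unadjusted *P* under 0.05. By limma without a filter, 1 of 20 members and 524 of all 13997 genes reached that unadjusted *P*. The member was *Rps2-ps6*, with means of 4.93 in wild type and 1.73 in null.

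Leaving out single libraries turned the sign of 8 of the 11 members. Fitted log2 fold changes then ranged from -0.072 to 0.014 (*Rps27l*), -0.047 to 0.048 (*Rpl22l1*), -0.13 to 0.10 (*Rpl10-ps3*), -0.27 to 0.12 (*Rpl9-ps6*), -0.045 to 0.0044 (*Rpl7l1*), -0.29 to 0.11 (*Rpl27-ps3*), -0.30 to 0.25 (*Rpl23a-ps3*) and -0.33 to 0.00039 (*Rpl6l*). Without a change of sign, they ranged from -0.68 to -0.24 (*Rps27rt*, the latter without wild-type library 4), -0.51 to -0.19 (*Rps26-ps1*) and -0.27 to -0.033 (*Rps12-ps3*). Equal summed group means moved the null values by -0.016, with 77 of 77 core genes lower. The wild-type profile from members of mean 4000 to 10000 depended on the start, with library 1 at -2.75% or 11.5%, while null library 2 stood at 13.6% from both.

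No paired analysis was possible because group means carry no replicate number, so the replicate block was not run. The deposited means give 1 value per genotype, most members are too abundant for their counts to be recovered singly, and library values over a mean of 4000 were not resolved.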
